A study of Mus musculus with 2 samples.

Results

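Tight junctions seal the space between epithelial cells, and the levels of 9 of their genes were followed here in the mouse mammary gland just before birth, in Ehf_KO and WT females. They were 5 claudins (Cldn1, Cldn3, Cldn4, Cldn7 and Cldn8), occludin (Ocln), the junctional adhesion molecule F11r and the scaffold proteins Tjp1 and Tjp3. They were taken by symbol and were 9 of the 27179 features in each matrix. Claudins are membrane proteins whose loops meet those of the next cell, and the set of claudins in a junction decides how tight it is and which ions pass. Occludin and F11r lie beside them in the membrane, and Tjp1 (ZO-1) and Tjp3 (ZO-3) tie their tails to the actin belt. In the mammary gland these junctions are leaky in pregnancy and close around the start of lactation, so that milk stays in the alveolar lumen.

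Single-cell RNA sequencing was done with the 10x 3' chemistry, which counts transcript ends with unique molecular identifiers (UMIs). The Ehf_KO library held cells of EhfKO females and the WT library cells of wild type females, all adult and at 18.5 days of pregnancy. Each was 1 library made from the pooled glands of 2 females, so nothing below has a replicate check, no test was made, and intervals (95%) cover counting error only. PCR and the spread between animals are outside them. The cells came from a sort that left out those with Ter119, CD31 or CD45, the surface markers of red, endothelial and white blood cells. The sources used here do not give the deleted part of Ehf, an ETS family transcription factor, or the background strain.

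After filtering, 6561 Ehf_KO and 9089 WT cells remained, with medians of 3900 and 2481 UMIs, and 15 cell barcodes occurred in both libraries. The 9 genes made up 22803 UMIs in Ehf_KO and 27991 UMIs in WT. Clusters were named from marker genes, and 3 epithelial classes are used. Luminal secretory cells, which make milk, were 825 cells (12.6%) in Ehf_KO and 2562 cells (28.2%) in WT. Basal cells, the contractile outer layer, were 5463 in Ehf_KO and 6162 in WT, and hormone-sensing luminal cells were 151 and 124. Krt8, a luminal keratin, had 45555 UMIs in Ehf_KO and 54797 UMIs in WT luminal secretory cells, while the basal keratin Krt14 had 915 and 709 UMIs there. Different clusters held most of the luminal secretory class, with 672 Ehf_KO and 370 WT cells in the luminal progenitor-like cluster 5 and 38 Ehf_KO and 1630 WT cells in the alveolar-like cluster 4. The 12 milk protein genes held 10.3% of its UMIs in Ehf_KO and 38.9% in WT, and 43.6% of its Ehf_KO cells and 17.7% of its WT cells were cycling. Ehf itself had 1081 UMIs in 825 Ehf_KO and 3344 UMIs in 2562 WT luminal secretory cells, so it was not absent. Scaled to the UMIs outside the 12 milk protein genes (CPM), its levels were 90.0 in Ehf_KO and 187 in WT. It was thus lower in Ehf_KO on that scale, which the totals alone do not show. Since the deleted part is unknown, these 3' tags may lie outside it and then check nothing.

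Cldn3 and Cldn4 lie close together on chromosome 5 and Cldn7 lies on chromosome 11 (positions are on GRCm38). Cldn3 (chr5:134986214-134987472, plus strand) and Cldn4 (chr5:134945119-134946934, minus strand) each have 1 exon and are read away from each other from start sites 39280 bases apart. Cldn7 (chr11:69964779-69967885, plus strand) has up to 5 exons. Cldn8 (chr16:88560828-88563183, minus strand, 1 exon) and Cldn1 (chr16:26356642-26371841, minus strand) lie far apart on chromosome 16. The other genes are Ocln (chr13:100496507-100552718, minus strand), Tjp1 (chr7:65296165-65527781, minus strand), Tjp3 (chr10:81273207-81291581, minus strand) and F11r (chr1:171437535-171464603, plus strand). Below are the 250 bases before the start of these 3 genes, shown because their levels followed each other most closely over the cell groups described further down, and because the deleted gene encodes an ETS factor. The sequences are RefSeq's on GRCm38.p6, printed 5′ to 3′ in the direction of the gene, from chr5:134985964-134986213, chr5:134946935-134947184 and chr11:69964529-69964778. Capitals mark the letters CGGAAG, which hold the ETS core, on either strand.
Cldn3: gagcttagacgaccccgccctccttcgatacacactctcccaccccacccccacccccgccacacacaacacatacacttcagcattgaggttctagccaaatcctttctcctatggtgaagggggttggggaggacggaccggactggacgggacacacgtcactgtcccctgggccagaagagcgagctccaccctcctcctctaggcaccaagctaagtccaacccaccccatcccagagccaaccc
Cldn4: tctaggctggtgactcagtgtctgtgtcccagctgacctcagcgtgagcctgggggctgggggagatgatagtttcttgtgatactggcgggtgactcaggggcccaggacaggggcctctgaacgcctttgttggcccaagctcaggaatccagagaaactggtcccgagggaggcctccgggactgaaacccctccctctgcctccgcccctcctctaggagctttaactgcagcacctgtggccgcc
Cldn7: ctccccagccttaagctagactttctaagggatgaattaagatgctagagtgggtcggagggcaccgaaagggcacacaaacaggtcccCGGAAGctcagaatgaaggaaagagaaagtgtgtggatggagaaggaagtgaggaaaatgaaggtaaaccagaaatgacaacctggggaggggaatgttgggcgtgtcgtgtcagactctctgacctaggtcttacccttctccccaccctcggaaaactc

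CGGAAG occurs once before Cldn7, starting 161 bases upstream, and 13.6% of all 32851 promoter windows of this length hold it on one strand or the other. These letters are not in the windows of Cldn3 and Cldn4. Of the 9 genes, 8 matched an entry (Cldn1, Cldn3, Cldn4, Cldn7, Ocln, Tjp1, Tjp3 and F11r), with 11 start sites in all. Besides the Cldn7 window shown, the letters were found before the second start of Cldn7 and before Tjp1. The grainyhead motif AACCNGTT was in none of the 11 windows, against 1.79% of all windows. The STAT5 motif TTCNNNGAA was in 1 of them, before the second Cldn7 start, against 7.02% of all windows. None of these motifs overlapped another in the windows of the 9 genes, and a match is a string of letters, not a binding site.

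Most of the 9 genes marked luminal cells, whatever the genotype. Levels are CPM (UMIs scaled to the UMIs outside the 12 milk protein genes), so that the milk genes do not set the scale. One tag is counted per transcript end, so levels are not divided by gene length, and levels of different genes are not compared. Cldn7 had a level of 628 in Ehf_KO luminal secretory cells, 6.68 in Ehf_KO basal cells and 560.2 in Ehf_KO hormone-sensing cells. Its WT levels were 752, 16.8 and 541 in the same classes. Luminal secretory cells were thus 94.1-fold higher than basal cells in Ehf_KO and 44.7-fold higher in WT. Cldn1, Cldn3, Cldn4, Cldn8, Ocln and Tjp3 had the same order of these 2 classes, with luminal secretory cells 29.3-fold to 60.3-fold higher than basal cells in Ehf_KO and 17.4-fold to 38.4-fold higher in WT. If basal casein UMIs were free RNA of luminal secretory cells, 118% of basal Cldn7 UMIs in Ehf_KO and 110% in WT would be expected. For the other genes just named it was 36.7 to 75.3% in Ehf_KO and 42.6 to 94.3% in WT. The sizes of these folds are thus not compared between libraries.

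Tjp1 and F11r did not share the luminal pattern of the other genes. Tjp1, the scaffold present at many kinds of junction, had levels of 52.4 in luminal secretory, 51.8 in basal and 39.0 in hormone-sensing cells of Ehf_KO. In WT the same classes had 35.1, 52.6 and 54.1. F11r, which has roles at junctions and in leukocyte and platelet adhesion, had levels of 48.2, 52.0 and 63.9 in Ehf_KO and 29.3, 35.6 and 49.0 in WT, in the same order. In WT, hormone-sensing cells were 1.54-fold higher than luminal secretory cells for Tjp1 and 1.67-fold higher for F11r. In the 62 Ehf_KO and 174 WT non-epithelial cells, which hold fibroblast-like, endothelial and myeloid cells, Tjp1 had levels of 126 and 122. There Tjp3 and Cldn8 had no UMI in either library, against limits of 6.76 in Ehf_KO and 3.55 in WT that a count of 0 allows (3 counts).

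Several of the genes differed between hormone-sensing and luminal secretory cells. Cldn8, a barrier claudin known from kidney tubules and colon, was 6.60-fold higher in hormone-sensing than in luminal secretory cells of Ehf_KO (levels of 153 and 23.1) and 2.01-fold higher in WT (levels of 213 and 106). Cldn1, a barrier claudin known from skin, ran the other way and was 12.3-fold lower in hormone-sensing cells of Ehf_KO and 13.7-fold lower in WT. These values rest on 5 UMIs in Ehf_KO and 1 UMI in WT hormone-sensing cells, beside 612 and 412 UMIs in the larger luminal secretory class. Tjp3 was 3.34-fold lower in hormone-sensing than in luminal secretory cells of Ehf_KO, while in WT the interval of its ratio included 0. In WT, Cldn4 was 2.24-fold lower and Ocln 2.33-fold higher in hormone-sensing than in luminal secretory cells, and in Ehf_KO they were 1.38-fold lower and 1.46-fold higher. Cldn10, a claudin that forms ion pores, had levels of 314 in Ehf_KO and 289 in WT hormone-sensing cells (378 and 171 UMIs). In luminal secretory cells its levels were 3.41 and 0.896 (41 and 16 UMIs).

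**Figure D1:**
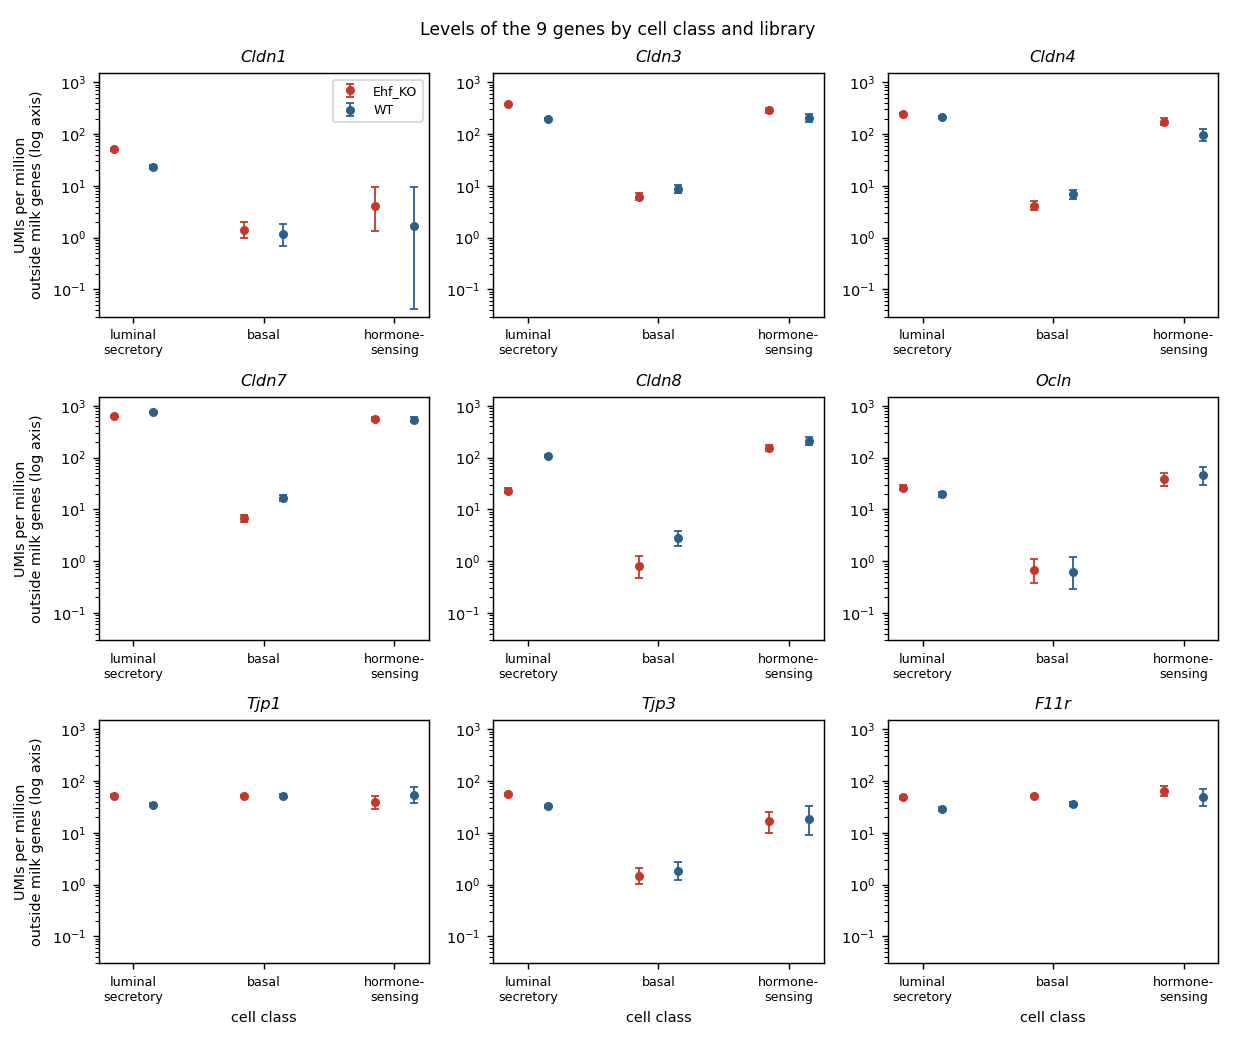
Levels of the 9 genes (CPM outside milk protein genes, log axis) by cell class, with Ehf_KO in red and WT in blue. Points are sums over all cells of the class in 1 library and bars are 95% Poisson intervals. Cldn7 is near 628 and 752 in luminal secretory cells and near 6.68 and 16.8 in basal cells, while Tjp1 and F11r differ far less between luminal secretory and basal cells.

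In luminal secretory cells, Cldn8 was far lower in Ehf_KO, Cldn1 and Cldn3 were higher, and the other 6 genes stayed within the 1.5-fold used to call a difference. Ratios are log2 Ehf_KO over WT, set so that the median gene of the class is at 0, which took away a shift of 0.31. By this rule of size 3 of 9 genes were called, 2 higher and 1 lower. Of the 11399 genes tested in this class (at least 50 UMIs over both libraries) 33.7% were called, 15.5% higher and 18.2% lower, so the 9 genes were called about as often as genes at large.

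Cldn8 had 278 UMIs in Ehf_KO and 1894 UMIs in WT, or levels of 23.1 and 106. Its log2 ratio was -2.51 (-2.69 to -2.32), and it lay between -2.80 and -1.22 under the alternatives tried. Cldn1 had levels of 50.9 in Ehf_KO and 23.1 in WT, a ratio of 0.83 (0.65 to 1.02). Cldn3, which seals the junctions of many luminal epithelia, had levels of 375 and 200, a ratio of 0.60 (0.54 to 0.66) that lay just past the 1.5-fold line. Centred on all genes with a UMI it was 0.56, under the line. Within cluster 5 alone the ratios of Cldn1 and Cldn3 were -0.042 and -0.34, so neither was higher in Ehf_KO among cells of that cluster. Its cells were not matched either, with a median casein share of 3.36% in Ehf_KO and 12.4% in WT. Milk protein genes held 8.45% and 16.8% of its UMIs, and 47.2% and 13.2% of its cells were cycling. The part of these differences in the cluster 5 ratios was not tested. Within cluster 14, with 51 Ehf_KO and 107 WT cells, Cldn3 was at 0.85. That cluster was placed in the class by its alveolar markers but is led by Ccl6, Retnla and Cd209f, and milk protein genes held 10.1% of its UMIs in Ehf_KO and 37.4% in WT.

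Cldn7 and Cldn4 were measured with the most UMIs of the claudins in WT. Cldn7, a claudin that also lies along the lateral membrane, had levels of 628 in Ehf_KO and 752 in WT, a ratio of -0.57 (-0.61 to -0.53), close to the 1.5-fold line but inside it. Centred on all genes with a UMI, or with equal weight per cell, it was -0.61, past the line. Without centring it was -0.26, and on plain CPM of all UMIs it was 0.29. Cldn4, a barrier claudin, had levels of 242 and 216 and a ratio of -0.14 (-0.21 to -0.07), which was 0.17 without centring and 0.72 on the plain scale. The direction of both genes thus depends on the scale. Within cluster 5, Cldn7 was at -0.57 and Cldn4 at -0.68.

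The remaining members had ratios above 0 but inside 1.5-fold. Tjp3 had levels of 55.5 in Ehf_KO and 32.3 in WT, a ratio of 0.47 (0.31 to 0.64). For F11r the levels were 48.2 and 29.3 and the ratio 0.41 (0.24 to 0.58). Tjp1 had levels of 52.4 and 35.1 and a ratio of 0.27 (0.11 to 0.43). For Ocln, whose 315 and 350 UMIs gave levels of 26.2 and 19.6, the interval of the ratio included 0 (0.11, -0.11 to 0.33). Without centring, Tjp3 and F11r were past 1.5-fold at 0.78 and 0.72, and on the plain scale all 9 genes except Cldn7 were past it. The share of all genes past it on these scales is not given, so these calls are not set against genes at large. Within cluster 5, Tjp1 and Tjp3 were at -0.23 and -0.16, so the direction of these small differences depends on which cells are set side by side.

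**Figure D2:**
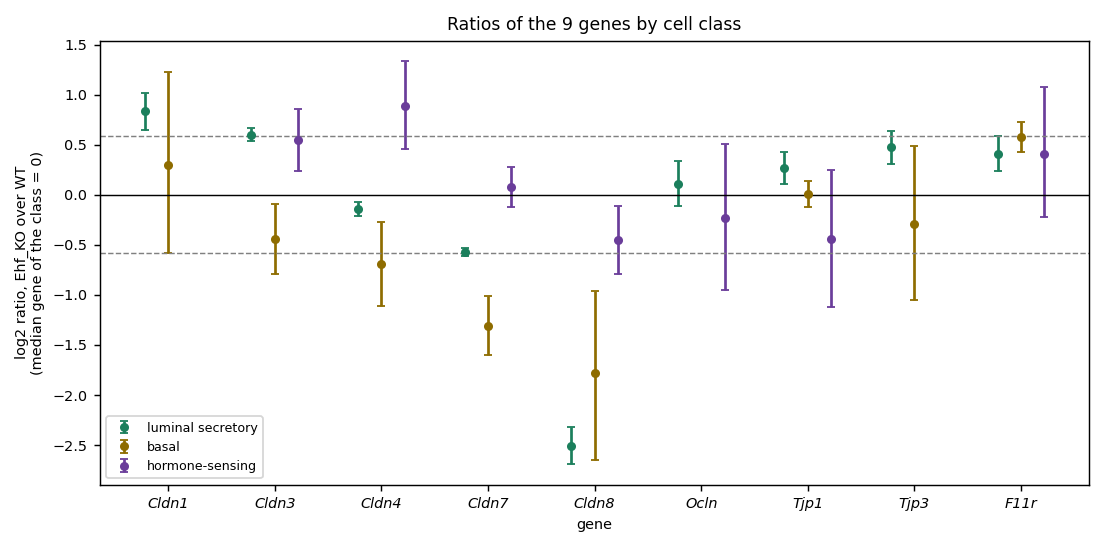
Log2 ratio of Ehf_KO over WT for the 9 genes in luminal secretory, basal and hormone-sensing cells, with 95% conditional intervals and with 0 at the median gene of each class. Dashed lines mark a 1.5-fold difference, and genes under 50 UMIs in a class are left out. Cldn8 lies lowest in luminal secretory cells at -2.51, and Cldn4 is higher in hormone-sensing cells at 0.89.

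Cldn8, Cldn3 and Cldn1 differed with how much casein a cell held. Luminal secretory cells were split by the casein share of their UMIs, a marker of secretory differentiation, into 6 bins of below 2.5%, 2.5 to 5%, 5 to 10%, 10 to 20%, 20 to 30% and at least 30%. From the lowest to the highest bin these held 339, 123, 162, 142, 47 and 12 Ehf_KO cells, and 74, 45, 86, 367, 1298 and 692 WT cells. The median casein share was 3.88% in Ehf_KO and 26.3% in WT cells of the class. The 12 Ehf_KO cells of the top bin are under the 20 set for a comparison. Casein UMIs of free RNA also enter the share, as basal cells had medians of 0.0872% in Ehf_KO and 0.792% in WT.

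Cldn8 was higher at each step of casein share in both libraries. Its levels were 14.9, 16.6, 21.8, 34.8 and 47.2 in the first 5 bins of Ehf_KO. In WT they were 17.7, 21.3, 34.6, 61.9, 105 and 139 over the 6 bins. Relative to the median gene, the top bin over the lowest gave a log2 ratio of 1.93 (1.23 to 2.60) in Ehf_KO and 3.13 (2.01 to 4.58) in WT, although the lowest bin of WT rests on 6 UMIs. The intervals of neighbouring bins overlapped in Ehf_KO and, below 20%, in WT.

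Cldn3 ran the other way. Its levels were 477, 380, 346, 299 and 244 in Ehf_KO, and 618, 485, 468, 334, 178 and 128 in WT, lower at each step, although the intervals of some neighbouring bins overlapped, those from 2.5 to 10% in both libraries among them. The log2 ratio of the top bin over the lowest was -0.70 (-0.95 to -0.46) in Ehf_KO and -2.12 (-2.34 to -1.89) in WT. Cldn1 was lower with casein share too, at -0.80 (-1.54 to -0.14) in Ehf_KO and -2.07 (-2.82 to -1.25) in WT. The top bins differ between the libraries (20 to 30% and at least 30%), so these ratios stand side by side and are not compared.

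Cldn7 changed little with casein share, at 0.01 (-0.15 to 0.16) in Ehf_KO and -0.19 (-0.36 to -0.01) in WT. In WT, Cldn4 was at -0.56, Tjp1 at -0.88 and Tjp3 at -1.22. Intervals of the WT ratios of Ocln (-0.35) and F11r (-0.52) included 0. In Ehf_KO, Tjp1 was at -0.76, while the intervals of Cldn4 (-0.08), Tjp3 (-0.05) and F11r (0.32) included 0. For Ocln the Ehf_KO value was -2.21 (-4.11 to -0.82), with 4 UMIs in the top bin. Of all genes tested, 20.8% were at least 1.5-fold higher and 21.5% lower in the top bin of Ehf_KO, and 30.8% higher and 26.3% lower in that of WT.

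**Figure D3:**
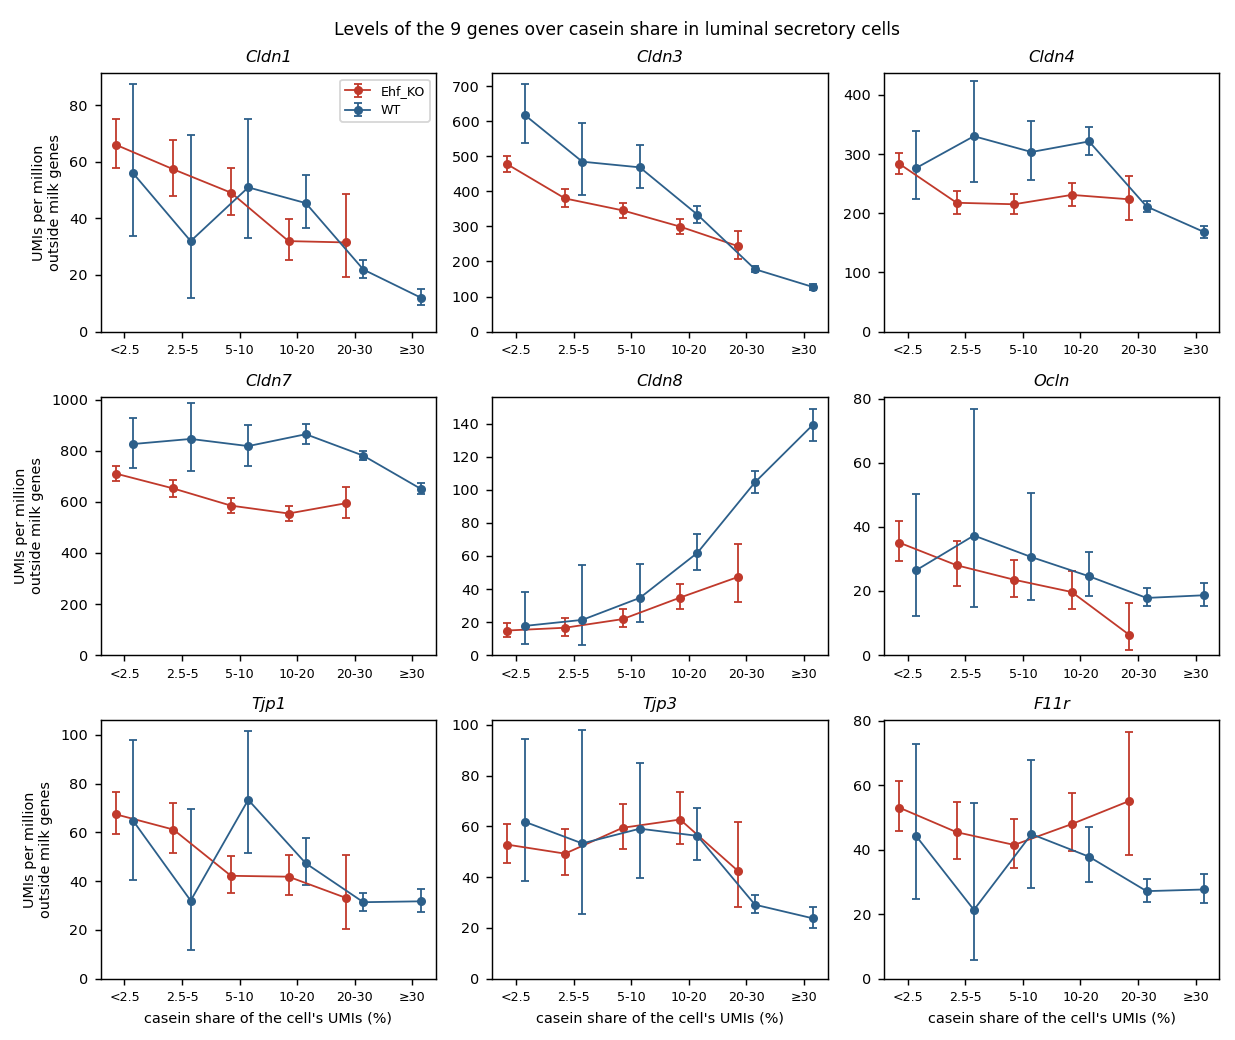
Levels of the 9 genes (CPM outside milk protein genes) in luminal secretory cells against the casein share of the cell's UMIs, with Ehf_KO in red and WT in blue. Points are sums over the cells of a bin with at least 20 cells and bars are 95% Poisson intervals. In WT, Cldn3 declines to 128 and Cldn8 climbs to 139 at the highest casein share, and Cldn7 in Ehf_KO lies below WT in each of the 5 bins shared.

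At like casein share, Ehf_KO cells had less Cldn7, less Cldn8 from 10 to 30% and, at low shares, less Cldn3 (inside 1.5-fold). Ratios of Cldn7 were -0.35, -0.55, -0.54, -0.69 and -0.44 over the 5 bins from the lowest, and each interval was below 0. Only the bin of 10 to 20% was past 1.5-fold. Cldn3 had -0.50, -0.53, -0.50 and -0.20 in the 4 lower bins and 0.41 (0.16 to 0.64) at 20 to 30%. The class ratio of 0.60 was thus higher than the ratio in any of the 5 bins, and opposite in sign to 4 of them. For Cldn8 the ratios were -0.38, -0.73, -0.88 and -1.20 in the bins of below 2.5%, 5 to 10%, 10 to 20% and 20 to 30%, with intervals below 0 in the last 2 (-1.29 to -0.47 and -1.77 to -0.67). In each of these 5 bins the Ehf_KO median casein share was lower, for example 13.6% against 16.7% in WT at 10 to 20% and 23.6% against 25.9% at 20 to 30%, and its part in the result was not tested. The bins also differed in depth, with median UMIs of 7200 to 15151 in Ehf_KO and 2952 to 9174 in WT. Cycling cells made up 31.9 to 64.2% of them in Ehf_KO and 8.11 to 26.7% in WT. Without cycling cells, Cldn7 was at -0.70 (-0.85 to -0.54) and Cldn8 at -0.98 (-1.65 to -0.37) at 10 to 20%, while Cldn3 was at -0.06 (-0.28 to 0.16). Below 2.5%, Cldn3 levels without cycling cells were 489 in Ehf_KO and 572 in WT. At 2.5 to 5% the 3 members then tested lay between -0.75 and -0.21, Cldn3 among them with 147 Ehf_KO and 75 WT UMIs.

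Few of the 9 genes passed 1.5-fold in most bins. None of 9 genes was called below 2.5%, where 36.3% of all genes were. At 2.5 to 5% it was 5 of 8, beside 38.1% of all genes, but 4 of those 5 (Cldn1, Ocln, Tjp1 and F11r) rest on 4 to 7 WT UMIs and have intervals that include 0. The fifth was Cldn4 at -0.78 (-1.16 to -0.37). At 5 to 10% Cldn8 and Tjp1 were called lower, beside 27.3% of all genes called either way and 13.3% called lower, and the interval of Cldn8 included 0. At 10 to 20% Cldn7 and Cldn8 were called lower, beside 20.8% either way and 11.1% lower. At 20 to 30%, Cldn8 and Ocln were called lower and F11r higher at 0.97 (0.42 to 1.49), beside 28.5% of all genes. Ocln there had 4 UMIs in Ehf_KO and 161 UMIs in WT. Ehf was called lower in all 5 bins, between -2.30 and -1.62.

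The balance of Cldn8 and Cldn3 needs no scaling, as both are counted in the same cells. Cldn8 made up 3.03% of the UMIs of both genes below 2.5% casein share in Ehf_KO (2.27 to 3.94%) and 2.78% in WT (1.03 to 5.95%). At 5 to 10% it was 5.92% in Ehf_KO (4.58 to 7.51%) and 6.88% in WT (4.06 to 10.8%). These intervals overlap. At 10 to 20% Cldn8 was 10.4% in Ehf_KO (8.41 to 12.7%) and 15.7% in WT (13.3 to 18.3%), and at 20 to 30% it was 16.2% (11.2 to 22.3%) and 37.0% (35.1 to 38.9%). The intervals of the libraries no longer overlap there. Without cycling cells the values at 20 to 30% were 19.6% in Ehf_KO (12.0 to 29.1%) and 38.9% in WT (36.6 to 41.2%). In the WT cells of at least 30% casein share Cldn8 made up 52.2%.

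**Figure D4:**
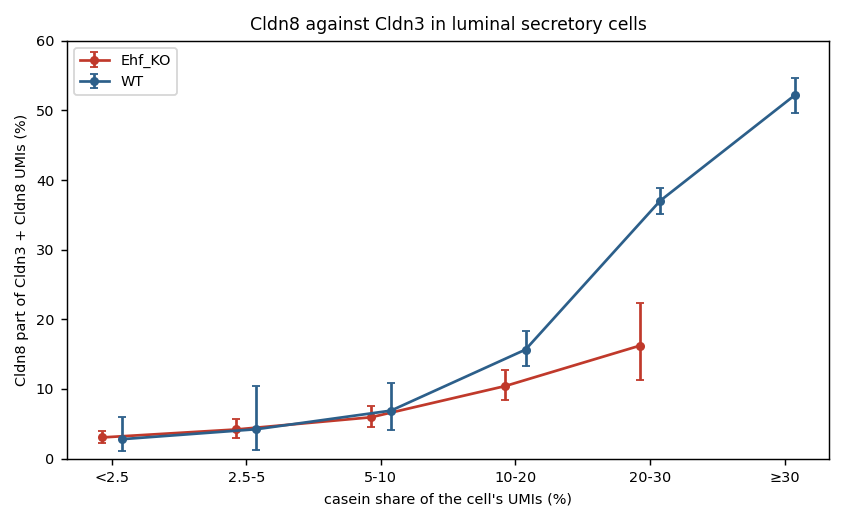
Cldn8 as a percentage of Cldn3 plus Cldn8 UMIs in luminal secretory cells against casein share, with Ehf_KO in red and WT in blue and 95% Clopper-Pearson intervals. Bins with at least 20 cells are shown. The libraries overlap up to a share of 10%, and WT is higher at 20 to 30% (16.2% in Ehf_KO and 37.0% in WT).

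Cldn7 gave the most claudin UMIs in luminal secretory cells of both libraries. It made up 46.9% of all claudin UMIs in Ehf_KO (46.1 to 47.7%) and 57.2% in WT (56.6 to 57.9%). Cldn3 was second in Ehf_KO with 28.0%, against 15.2% in WT. Cldn4 took 18.1% in Ehf_KO and 16.4% in WT, Cldn1 took 3.80% and 1.76%, and Cldn8 took 1.73% and 8.07%. Below 2.5% casein share the libraries lay close, with 45.1% and 45.7% for Cldn7 and 30.2% and 34.2% for Cldn3. In hormone-sensing cells Cldn7 also led (36.5% in Ehf_KO and 39.3% in WT), followed by Cldn10 (20.5% and 21.0%). Among basal cells Cldn12 made up 34.9% in Ehf_KO and 23.5% in WT, of only 929 and 788 claudin UMIs. Cldn7 made up 17.3% and 31.0% there and was the largest part in WT, but its free RNA estimate, given below, exceeds its basal UMIs. Levels of Cldn12 in basal cells lay close, at 13.4 in Ehf_KO and 12.8 in WT. Non-epithelial cells held mainly Cldn5, the claudin of blood vessels, with 85.2% in Ehf_KO and 77.3% in WT.

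**Figure D5:**
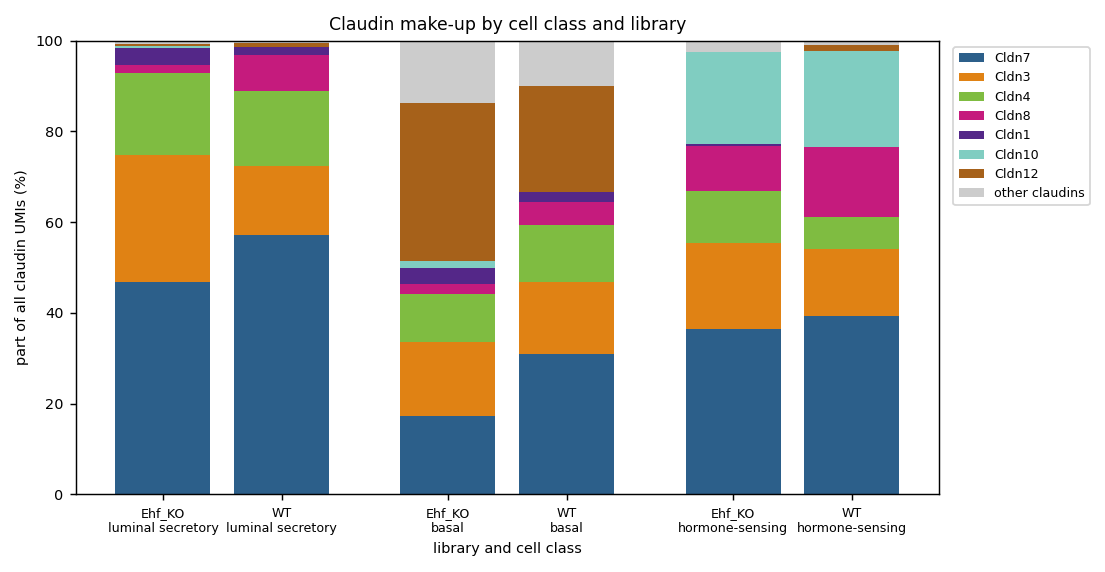
Part of all claudin UMIs held by each claudin in luminal secretory, basal and hormone-sensing cells, with the Ehf_KO bar left of the WT bar. Cldn7 leads in luminal secretory cells (46.9% and 57.2%), Cldn8 is the smaller part in Ehf_KO (1.73% and 8.07%), and Cldn10 is seen mainly in hormone-sensing cells.

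Shares of cells with a UMI were taken after each cell was thinned to 2000 UMIs, which left 797 Ehf_KO and 2457 WT luminal secretory cells and left out 28 and 105. Cldn3 was seen in 49.7% of Ehf_KO cells (46.2 to 53.2%) and 21.0% of WT cells (19.4 to 22.6%). For Cldn8 the shares were 4.77% in Ehf_KO (3.40 to 6.49%) and 11.5% in WT (10.3 to 12.9%). Cldn7 was seen in 64.1% and 57.3%, Cldn4 in 30.1% and 22.3%, and Cldn1 in 7.28% and 2.69%. The share of Cldn7 was thus higher in Ehf_KO while its level was lower, and no order is read from it. Thinning keeps the milk UMIs, which take up more of a WT cell. Unthinned shares of Cldn3 and Cldn8 were 90.8% and 24.4% in Ehf_KO and 57.4% and 43.2% in WT, at median depths of 10565 and 9005 UMIs.

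At least 3 of the 5 claudins were seen together in 15.4% of thinned Ehf_KO and 7.04% of thinned WT luminal secretory cells. In each bin below 20% casein share the order was the other way. From the lowest bin up the shares were 21.1%, 12.5%, 12.8% and 10.8% in Ehf_KO and 26.4%, 27.0%, 22.7% and 14.7% in WT. They rest on 323, 120, 156 and 139 Ehf_KO cells and on 53, 37, 75 and 340 WT cells. No intervals were made for these shares, so the order in single bins may lie within counting error. At 20 to 30% they were 8.51% of 47 Ehf_KO cells and 5.35% of 1272 WT cells. Thinned basal cells, whose median was 3693 UMIs in Ehf_KO and 2048 UMIs in WT before thinning (168 and 2898 cells left out), had Cldn3 in 1.42% of Ehf_KO and 1.90% of WT cells and Cldn7 in 1.30% and 2.63%. The free RNA estimates for these genes stand with the basal values below. F11r and Tjp1 were seen in 9.46% and 9.39% of thinned Ehf_KO basal cells, and in 6.46% and 9.77% of WT ones.

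In basal cells, Cldn4, Cldn7 and Cldn8 were called lower in Ehf_KO, 3 of the 8 genes tested, beside 13.0% of 12509 genes called either way and 6.78% called lower. Cldn7 had 161 UMIs in Ehf_KO and 244 UMIs in WT, a ratio of -1.31 (-1.60 to -1.01). For Cldn4 the 100 and 99 UMIs gave -0.69 (-1.11 to -0.28), and for Cldn8 the 19 and 40 UMIs gave -1.78 (-2.65 to -0.96). If all casein UMIs of basal cells came from luminal secretory cells of the same library, 118% of the Cldn7 UMIs would be expected in Ehf_KO and 110% in WT, and 72.9% and 77.5% of those of Cldn4. For Cldn8 the values were 36.7% and 94.3%, and with such UMIs subtracted its ratio turned to 1.68. Cldn3 had 150 and 125 UMIs, with 75.3% and 56.9% expected from free RNA, and a ratio of -0.44 (-0.80 to -0.09).

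The same estimate was small for 2 genes of basal cells. For F11r, 1253 UMIs in Ehf_KO and 516 UMIs in WT gave levels of 52.0 and 35.6 and a ratio of 0.57 (0.42 to 0.72), just inside 1.5-fold, with 1.16% and 2.02% expected from free RNA. For Tjp1, 1248 and 762 UMIs gave a ratio of 0.01 (-0.13 to 0.14), with 1.27% and 1.64% expected. Ocln had too few UMIs to be tested (16 and 9).

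In hormone-sensing cells 1 of the 7 genes tested was called, beside 17.7% of 4409 genes (9.05% higher and 8.69% lower). Cldn4 was higher in Ehf_KO, with 211 UMIs in Ehf_KO and 57 UMIs in WT, levels of 175 and 96.3, and a ratio of 0.89 (0.46 to 1.34). Cldn3 had levels of 290.5 and 203 and a ratio of 0.54 (0.24 to 0.86), inside 1.5-fold. Cldn8 had levels of 153 and 213 and a ratio of -0.45 (-0.79 to -0.12). For Cldn7, with levels of 560.2 and 541, the ratio was 0.08 (-0.12 to 0.27). The intervals of Ocln, Tjp1 and F11r included 0, and Cldn1 and Tjp3 were under 50 UMIs. Free RNA was expected to give at most 2.27% of the UMIs of these tested genes in Ehf_KO and 11.5% in WT.

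The wider tight junction list, without the 9 genes, held 96 genes, of which 94 were in the matrices and 68 had at least 50 UMIs in luminal secretory cells. Of these, 13 were called higher in Ehf_KO and 7 lower, with a median ratio of 0.16, beside 15.5% of all genes higher and 18.2% lower. Without centring the split was 27 higher and 2 lower, and on the plain scale 54 higher and 0 lower. Both scales move every gene of the class upward alike, and the share of all genes called under them is not given. Whether these splits differ from genes at large thus cannot be told. Within cluster 5 the split was 2 higher and 6 lower of 64 list genes tested, with a median of -0.16, beside 11.5% of all genes higher and 11.2% lower.

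Genes of cell adhesion held 4 of the 13 higher calls among 12 tested adherens junction partners, and none was lower. Of all genes in the class, 15.5% were higher and 18.2% lower, and whether so small a group differs from that was not tested. Among them, Cdh1, the E-cadherin of epithelia, was at 0.75 (0.65 to 0.84), with levels of 186 in Ehf_KO and 89.4 in WT. The nectins Nectin3 and Nectin1, which start cell contacts, were at 1.37 and 0.93. Cytoplasmic scaffolds also had 4 higher of 12 and none lower, namely Cgnl1 (0.82), Mpdz (0.78), Amotl2 (0.63) and Tjap1 (0.59). Within cluster 5 these calls were mostly not seen, with 1 higher and 1 lower adherens junction partner (median -0.067) and 0 higher and 1 lower scaffold (median -0.29). There 11.5% of all genes were higher and 11.2% lower.

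Other groups were split or near 0. Of 20 regulators 2 were higher, Arhgef2 (0.89) and the transcription factor Ovol2 (0.74, with an interval from -0.08 to 1.58), and 3 were lower, among them the membrane protease Prss8 (-0.97) and Tfcp2l1 (-0.74), a factor of the grainyhead family. The other was Spint1, a protease inhibitor, at -0.59, named after its value was seen. Among 12 polarity genes only Pard6a was called (-0.69). The largest other ratios there were 0.48 for the kinase Prkcz, 0.41 for Crb3 and 0.39 for Scrib. The MARVEL and angulin group, only part of which is known to seal the corners where 3 cells meet, had 1 call in 5, Marveld1 at -1.18. Lsr, Ildr1 and Marveld2 were at 0.55, -0.54 and 0.48.

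Of 2 JAM family genes tested, Cxadr, a receptor for viruses at the junction, was higher at 0.59, and Igsf5 was lower at -0.66. In the group of other claudins Cldn10 was higher (1.62) and Cldn12 lower (-0.78), while Cldn23 (0.40) and the claudin-domain gene Cldnd1 (0.03) were inside 1.5-fold. The Cldn10 value rests on 41 Ehf_KO and 16 WT UMIs, beside its levels of 314 and 289 in hormone-sensing cells. Whether RNA or cells of that class entered the result was not tested. Snai2, a repressor of epithelial genes known from basal cells, was the sole repressor tested, at 0.73. Its 65 Ehf_KO and 47 WT UMIs stand beside the basal keratin UMIs named above, and their part in the result was not tested.

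In basal cells 67 list genes were tested, 4 higher and 4 lower with a median of -0.0033, beside 6.20% of all genes higher and 6.78% lower. The following were named after their values were seen. Epcam was at 0.86, with levels of 212 in Ehf_KO and 119 in WT, Klf5 at 0.67, Jam3 at 0.80 and Grhl1 at 0.80. Cgn (-0.81), Twist2 (-0.63), Pard6a (-0.62) and Llgl2 (-0.62) were lower, with 28 to 73 UMIs in Ehf_KO and 30 to 69 UMIs in WT, and the interval of Twist2 included 0. Of 40 list genes tested in hormone-sensing cells, 3 were higher and 1 lower, with a median of 0.11, beside 9.05% of all genes higher and 8.69% lower. Named after their values were seen, these were Ctnnd1 (0.69), Marveld2 (0.65), Tfcp2l1 (0.58) and Pals1 (-0.59), and the intervals of Marveld2 and Tfcp2l1 included 0.

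Cldn3, Cldn4 and Cldn7 had like profiles over 19 sums, which are the 4 classes (non-epithelial cells included) and the casein bins in each library. Pearson's r of the log2 level (5 added) was 0.99 for Cldn4 and Cldn7, 0.98 for Cldn3 and Cldn4 and 0.97 for Cldn3 and Cldn7. The sums share cells, libraries and the scale, so r is a description. Among 9115 genes with at least 500 UMIs, the 3 closest to Cldn3 were Krt18, Rab25 and Cldn4, those closest to Cldn4 were St14, Cldn7 and Cldn3, and those closest to Cldn7 were Cldn4, St14 and Cgn (r between 0.98 and 0.99). Krt18 is a luminal keratin, St14 a membrane protease and Cgn the junction scaffold cingulin.

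Other genes were closest to Cldn8. They were Cox7c, Pcx and Cox5a (r between 0.96 and 0.97), 2 subunits of the respiratory chain and a carboxylase of mitochondria, and its r with Cldn3 was 0.63 and with Cldn1 0.18. Among the closest were, for Cldn1, Barx2 and Ceacam2 (0.97 and 0.95), for Tjp3 Arhgap8, Camsap3 and Tcf25 (0.97), and for Ocln Coro2a and Tmc4 (0.96 and 0.94). Tjp1 was closest to Arpc2, Cdc42bpb and 2810025M15Rik (0.92 to 0.94). F11r had the weakest likeness, with Znrf1, Stk19 and Borcs7 (0.84 to 0.87).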

How the data were processed

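The authors deposited raw UMI counts for each barcode, not normalized, as the whole numbers in the matrices show. The submitters' processing notes name GRCm38 (mm10) and Seurat 4.0.4. No source used here names the aligner or the counting tool. Depth was 40066795 UMIs over 7275 barcodes in Ehf_KO and 48720938 over 11258 in WT.

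Cells with at least 500 genes, 1000 UMIs and at most 20% mitochondrial UMIs were kept. Scrublet called 0 of 6561 Ehf_KO cells, where it thus failed, and 122 of 9211 WT cells. The 38 Ehf_KO cells above the WT threshold were kept and were left out in an added alternative. Leiden clustering (scanpy 1.11.5, 2000 variable genes, 30 components, 20 neighbours, resolution 1) gave 17 clusters, named from markers that include milk genes. Milk, ribosomal, mitochondrial and tight junction list genes were not used to cluster. Cluster 13 holds endothelial and myeloid markers and 1 cluster of 127 cells stayed unnamed. Members and gene lists were chosen with earlier results of these data known.

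UMIs were summed per library and class. Ratios carry conditional binomial intervals, levels Poisson intervals and shares Clopper-Pearson intervals (95%), for counting error only, and say nothing of the spread between animals. Differences of 1.5-fold were called as a rule of size among genes with at least 50 UMIs. Promoter sequences are RefSeq's and gene positions are GENCODE's. The ratio step was tested on simulated counts. Named list genes are up to 4 per group by size of the luminal secretory ratio, and the 3 genes most alike were taken per member. A few genes that these rules pick are not reported here.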

Additional observations from a re-analysis of the deposited data

Results flagged for a closer look

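For Cldn3 and Cldn4 the ratio pointed in opposite directions in different classes, with intervals that did not include 0. Cldn3 was higher in Ehf_KO in luminal secretory cells (0.60) and in hormone-sensing cells (0.54) and lower in basal cells (-0.44). Its luminal secretory ratio was below 0 within cluster 5 and in the lower casein bins, so that direction depends on which cells are set side by side. Cldn4 was lower in luminal secretory cells (-0.14) and basal cells (-0.69) and higher in hormone-sensing cells (0.89). In luminal secretory cells its direction rests on the scale, as it was 0.17 without centring and 0.72 on plain CPM. The differences between classes were not tested, since each rests on 1 library per genotype. The basal values stand beside the free RNA estimates given with them.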

How the results depend on the processing

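No paired analysis was possible because there is 1 library per genotype and the labels give no replicate numbers. In luminal secretory cells the count of 3 called genes was 5 without centring and 8 on plain CPM, and the list median of 0.16 was 0.47 and 1.03 under these scales and -0.16 within cluster 5. Both scales move every gene of the class upward alike, and the share of all genes called under them is not given. These counts and medians are thus not set against genes at large. Within clusters 5 and 14 the count was 2, and under the other alternatives it was 3 or 4. The list median was otherwise between 0.12 and 0.20. The basal count of 3 was 1 with free RNA subtracted. The hormone-sensing count of 1 was 2 when centred on genes with at least 1 UMI and 2 with equal weight per cell. Called ratios changed sign for Cldn1 (-0.042) and Cldn3 (-0.34) within cluster 5 and for Cldn8 in basal cells (1.68) with free RNA subtracted, and the cause was not tested. Of the ratios inside 1.5-fold in luminal secretory cells, the sign changed within cluster 5 for Tjp1 (-0.23), Tjp3 (-0.16) and Ocln (-0.020), within cluster 14 for Tjp1 (-0.25) and Cldn4 (0.41), without centring for Cldn4 (0.17), and on plain CPM for Cldn4 (0.72) and Cldn7 (0.29). Of the other luminal secretory ratios of single genes, 76 lay inside the counting interval of the reported value, 29 above it and 7 below it. Of the levels over casein share, 136 lay inside, 14 above and 48 below, 39 of them on the plain scale. All 46 unthinned shares that moved were higher, and all 45 shares thinned to 1000 UMIs that moved were lower. Free RNA was not subtracted in luminal secretory cells. Leaving out the 38 Ehf_KO cells with high doublet scores or the immunoglobulin-rich cluster, both added after seeing the data, moved no call. Depth limits single bins and classes, such as Ocln with 4 Ehf_KO UMIs at 20 to 30% casein share and Cldn8 with 4 WT UMIs at 2.5 to 5%.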
